A study of Homo sapiens with 8 samples.

Results

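Replication-dependent histone genes are described here in HCT116 cells, a human colorectal carcinoma line. They were taken as every row annotated as protein-coding whose name begins with HIST1H, HIST2H, HIST3H or HIST4H. This gave 71 of the 58735 rows of the table, which holds 19951 protein-coding rows. By the class in the name they were 6 H1, 17 H2A, 18 H2B, 15 H3 and 15 H4 genes. On GRCh38, 55 lie on chromosome 6 (chr6:25726132-27893843), 15 on chromosome 1 and 1, HIST4H4, on chromosome 12. Messenger RNA was measured by RNA-seq in 8 libraries, 2 in each of 4 groups. In the first 2 groups the cells carried shRNA 1 or shRNA 2, short hairpin RNAs against MAPKAPK2, at 20 mM glucose. The other 2 groups carried a control shRNA, at 0 mM or at 20 mM glucose for 24 h, so every group expressed an shRNA in the same line. MAPKAPK2 encodes MK2, a kinase downstream of p38 in stress signalling. The labels do not say whether the 2 libraries of a group came from separate cultures, so p-values here measure only the spread between these libraries, which may be technical.

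Replication-dependent histones package newly copied DNA, and their genes are transcribed mainly in S phase, when the cell needs large amounts of them. A pair each of H2A, H2B, H3 and H4 forms the nucleosome core, and the linker histone H1 binds the DNA that enters and leaves it. Most of these messages carry no poly(A) tail: they end just after a conserved stem-loop that the stem-loop binding protein SLBP holds. Some of the genes are known to make a second, polyadenylated message from a more distant site, mostly in cells that have left the cycle or are differentiating. Many of the genes lie head to head in H2A/H2B pairs, and the octamer motif in H2B promoters is known to be bound by OCT1 (POU2F1).

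The bases upstream of genes that the comparisons turn on are printed 5′ to 3′ on the strand of the named gene, from RefSeq on GRCh38.p14. Capitals mark the CCAAT box, the TATA box searched as TATAAA, and the octamer searched as ATTTGCAT, each on either strand. Near the start of the HIST1H2BK stretch a TATA box on each strand overlap. HIST1H2BK (minus strand, chr6:27146856-27147105) and HIST1H2BD (plus strand, chr6:26157872-26158121) are shown because they had the largest falls that passed the test. The third stretch (plus strand, chr6:26123927-26124146) holds the 218 bases between the divergent genes HIST1H2BC and HIST1H2AC and the next 2 bases, which complete a TATAAA.
HIST1H2BK: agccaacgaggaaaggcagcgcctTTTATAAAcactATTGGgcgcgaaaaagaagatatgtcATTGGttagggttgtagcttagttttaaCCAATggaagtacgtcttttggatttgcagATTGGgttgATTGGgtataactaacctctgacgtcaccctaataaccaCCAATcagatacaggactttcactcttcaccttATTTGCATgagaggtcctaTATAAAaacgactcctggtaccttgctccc
HIST1H2BD: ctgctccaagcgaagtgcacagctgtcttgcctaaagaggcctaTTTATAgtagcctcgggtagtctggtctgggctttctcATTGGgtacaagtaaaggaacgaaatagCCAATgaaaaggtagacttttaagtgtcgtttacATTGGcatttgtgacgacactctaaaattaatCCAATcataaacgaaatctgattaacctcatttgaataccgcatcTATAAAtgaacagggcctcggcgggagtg
HIST1H2AC: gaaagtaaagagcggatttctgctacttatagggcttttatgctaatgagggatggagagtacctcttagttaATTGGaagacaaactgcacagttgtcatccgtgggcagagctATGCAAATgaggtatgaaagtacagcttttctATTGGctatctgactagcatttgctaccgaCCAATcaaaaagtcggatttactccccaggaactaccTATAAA

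Of the 71 genes 66 had a RefSeq promoter, 300 bases that reach 250 before and 50 after the start. The octamer was in 11 of 16 H2A and 14 of 18 H2B promoters and in none of 6 H1, 13 H3 or 13 H4 promoters, against 1.77% of all 35116 RefSeq promoters. CCAAT was in all H1, H2A, H2B and H3 promoters and in 3 of 13 H4 promoters, against 34.6% of all. TATAAA was in 45 of the 66, or 68.2%, against 11.5% of all. HIST1H2BK holds the octamer and HIST1H2BD does not have these exact letters in the printed window. Divergent H2A and H2B genes lie 218 to 330 bases apart, so their windows can overlap. The same site can then count for both genes, as the octamer between HIST1H2AC and HIST1H2BC did. The H2A and H2B counts are thus not independent. A match is a description of letters and not of binding.

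The 3′ stem-loop was read from the GENCODE 29 transcripts, where it was found for 32 of the 71 genes. It is shown, with 5 bases on each side and the stem-loop in capitals, for 4 genes whose transcripts run past it.
HIST1H2BD: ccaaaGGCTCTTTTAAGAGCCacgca
HIST1H2BC: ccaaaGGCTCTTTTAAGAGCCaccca
HIST1H2AC: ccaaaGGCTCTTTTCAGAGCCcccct
HIST1H4I: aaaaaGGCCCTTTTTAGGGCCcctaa

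For each gene the transcript read was the first, in letter order of sequence, that held the stem-loop. This transcript goes on for 39 bases after the stem-loop in HIST1H2BD, 116 in HIST1H2BC, 1114 in HIST1H2AC and 212 in HIST1H4I. Other transcripts of a gene may end elsewhere. The transcripts read hold 496 of the 871 exon bases of HIST1H2BD and 571 of the 834 of HIST1H2BC. Both genes thus have further annotated exon bases, which enter their FPKM. HIST1H2BD and HIST1H2BC have the same 16-base stem-loop. For 33 of the 71 genes, HIST1H2BK and HIST1H1C among them, the annotation holds the coding bases alone, so reads past the stop codon were not counted for them, and FPKM is relative to a length without the ends of the message.

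The libraries held 14252316 to 19975449 reads in genes. MAPKAPK2 had 2.77 and 2.54 FPKM with shRNA 1, 0.982 and 0.800 FPKM with shRNA 2, 17.9 and 18.9 FPKM at 0 mM glucose, and 16.4 and 16.2 FPKM in the 20 mM control. Both shRNAs thus gave lower values than every control library. Of 10 colon epithelial markers KRT8, KRT18, KRT19 and EPCAM were abundant and the sum was 1265 to 1854 FPKM per library, but VIL1 and LGALS4 were near 0. The 10 markers of leukocytes, endothelium, fibroblasts and muscle summed to 4.77 to 8.45 FPKM per library, 79.4% to 85.1% of it COL1A1, while PTPRC and CD3E were at or near 0. COL1A1 fell over both shRNAs (log2 fold change -0.55, limma adjusted p = 0.0077). Of 8 tested epithelial markers 2 rose and 1 fell over both shRNAs, and 6 were lower and 0 higher with shRNA 2 than with shRNA 1. The part of these marker differences in the histone results was not tested. In bulk RNA, fewer cells in S phase and less histone RNA per cell cannot be told apart.

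Histone messages made up 0.0222% to 0.0421% of all FPKM. Summed over the 71 genes they reached 83.2 and 64.9 FPKM with shRNA 1, 109 and 90.7 FPKM with shRNA 2, 112 and 108 FPKM at 0 mM, and 122 and 129 FPKM in the 20 mM control. All 4 shRNA libraries against MAPKAPK2 and both 0 mM libraries were below both 20 mM controls in summed FPKM. As CPM, reads relative to library size and not divided by gene length, the sums were 69.2 and 57.4 with shRNA 1, 91.6 and 76.2 with shRNA 2, 86.0 and 87.7 at 0 mM, and 87.5 and 93.8 in the 20 mM control. On that scale the shRNA 2 and the 0 mM libraries overlapped the control, and the shRNA 1 libraries alone were below it. These sums rest on 877 to 1779 reads per library. HIST1H2BK alone gave 29.3% to 49.3% of the sum. The 5 genes with the highest mean over all libraries gave 70.9% to 80.2%.

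An FPKM of 1 in at least 2 libraries was reached by 18 of the 71 genes: 2 H1, 4 H2A, 4 H2B, 4 H3 and 4 H4. These 18 entered the tests. Of the other 53, 17 had 0 reads in all 8 libraries, and the median of the 53 was 4 reads over all libraries together. Exons of other genes overlap 15 of the 53 and none of the 18, and 15 of the 53 share over 25% of their 100-base windows with another gene, against 4 of the 18. Among the 17 at 0, other genes cover over 85% of the exon bases of HIST1H2AD, HIST1H2AK, HIST1H2AM, HIST1H3D and HIST2H3PS2. Reads there may have been left out or given to the other gene, so no limit can be set for these 5. For the others a count of 0 allows up to 3 reads per library, for counting error alone. This is 0.145 to 0.196 FPKM for a gene of 1000 exon bases. The limit is higher for shorter genes, and most of these are shorter, down to 297 exon bases in HIST1H4G. Just inside the threshold were HIST1H4D, with a second-highest value of 1.05 FPKM, and HIST1H4J, with 1.13 FPKM. Just outside were HIST1H2BO, HIST1H2BJ and HIST2H2AB, with second-highest values of 0.888, 0.865 and 0.738 FPKM. HIST1H2BN had the most reads of the untested genes, 402 in all, spread over 5477 exon bases.

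RNAs that have no poly(A) tail could be judged only in part. Of 12 rows for RNAs of this kind (small nuclear RNAs, RN7SK, RMRP and others) 8 were at 0 in every library and 11 stayed under 2 FPKM. Of the 8 at 0, 7 have over 85% of their bases inside another annotated gene, where reads may have been left out, so their 0 says nothing of their level. RN7SL2, which no other gene overlaps, had 125 and 257 FPKM with shRNA 1, 945 and 169 with shRNA 2, 468 and 49.5 at 0 mM, and 194 and 191 in the 20 mM control. The labels do not say whether the libraries were selected for poly(A), and the part of library type in the histone levels was not tested.

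H2B was the most abundant class in every library, with 48.7% to 65.5% of the sum, and it differed most from the 20 mM control with either shRNA and at 0 mM. Its 18 genes summed to 41.6 and 32.0 FPKM with shRNA 1, 53.2 and 46.3 FPKM with shRNA 2, 63.6 and 65.9 FPKM at 0 mM, and 80.0 and 82.6 FPKM in the 20 mM control. No 2 of the 4 groups overlapped. The mean was 0.452 times the control with shRNA 1, 0.612 times with shRNA 2 and 0.796 times at 0 mM. Without HIST1H2BK the other 17 H2B genes averaged 10.7 ± 0.484 FPKM with shRNA 1, 18.5 ± 3.79 with shRNA 2, 22.4 ± 1.80 at 0 mM and 21.0 ± 1.80 in the 20 mM control (SD, n = 2 each).

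The linker histone class H1 summed to 10.2 ± 2.28 FPKM with shRNA 1, 18.4 ± 7.50 with shRNA 2, 13.9 ± 3.66 at 0 mM and 16.2 ± 0.458 in the 20 mM control (SD, n = 2 each). Both shRNA 1 libraries lay below both controls, while the shRNA 2 and the 0 mM libraries overlapped or straddled them. H4, the most conserved core histone, summed to 5.09 ± 0.727 FPKM with shRNA 1, 8.90 ± 0.850 with shRNA 2, 8.12 ± 1.39 at 0 mM and 8.45 ± 0.708 in the control (SD, n = 2 each). Both shRNA 1 libraries lay below the other 6.

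H2A did not follow H2B. It summed to 16.0 ± 0.705 FPKM with shRNA 1, 17.8 ± 1.46 with shRNA 2, 17.0 ± 2.61 at 0 mM and 14.3 ± 1.12 in the 20 mM control, and H3 to 5.99 ± 3.94, 5.24 ± 0.175, 5.98 ± 0.513 and 5.55 ± 0.852 FPKM in the same groups (SD, n = 2 each). The H2A sums of all 4 MAPKAPK2 shRNA libraries were above both control values, and those of H3 overlapped. Without HIST1H2BK the sum over all classes was 48.0 ± 6.68 FPKM with shRNA 1, 68.8 ± 12.1 with shRNA 2, 67.4 ± 2.57 at 0 mM and 65.5 ± 4.94 in the 20 mM control (SD, n = 2 each). The lower sums with shRNA 2 and at 0 mM thus turned slightly above the control once that gene was left out, while that with shRNA 1 stayed below it. Class sums are a description and were not tested.

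**Figure D1:**
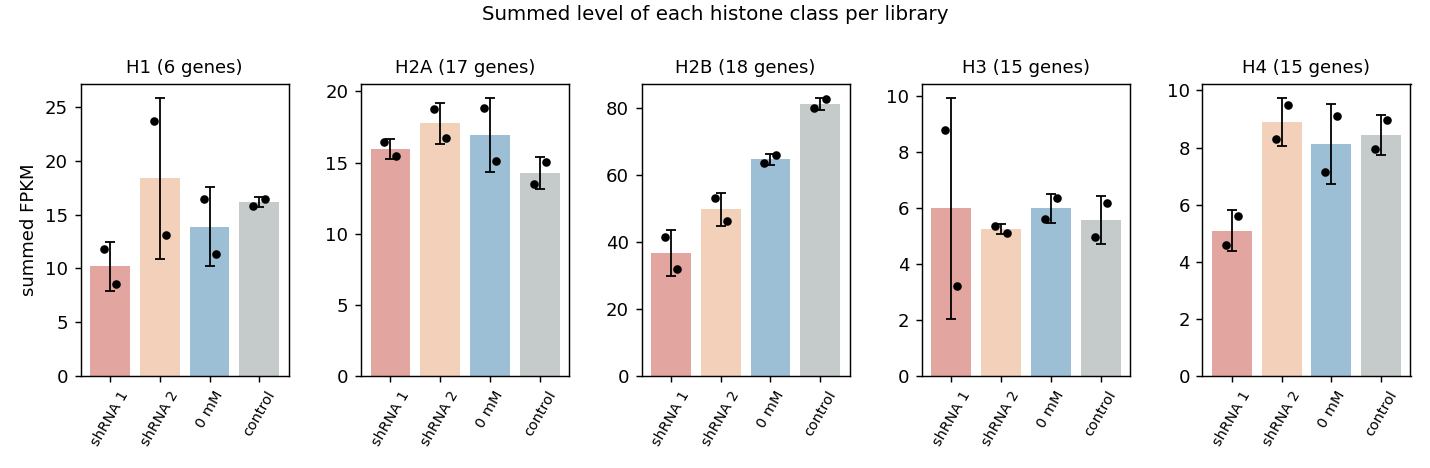
Summed FPKM of each histone class (y axis, a separate scale from 0 in each panel) for MAPKAPK2 shRNA 1, MAPKAPK2 shRNA 2, control shRNA at 0 mM and control shRNA at 20 mM glucose. Points are the 2 libraries, bars the mean and whiskers 1 SD. In the H2B panel the groups do not overlap, with shRNA 1 lowest (41.6 and 32.0 FPKM) and the 20 mM control highest (80.0 and 82.6 FPKM).

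**Figure D2:**
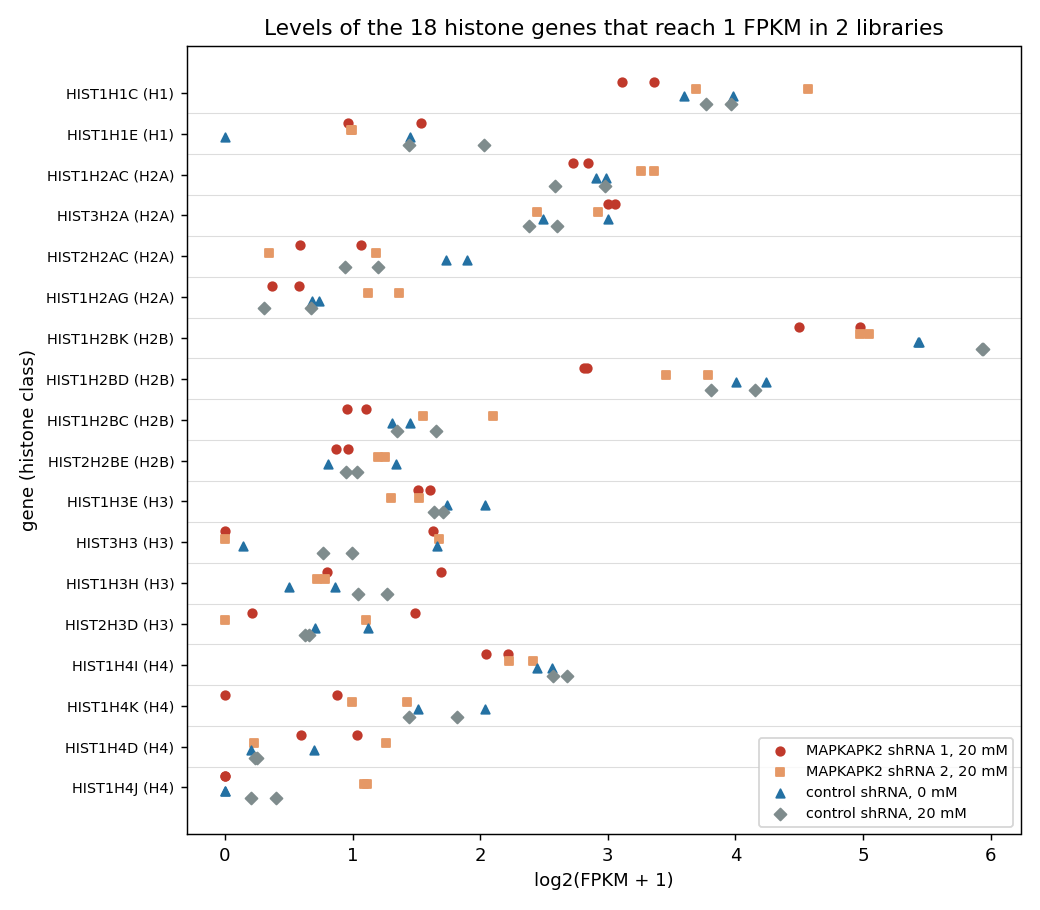
Level of each of the 18 tested histone genes, grouped by class, in the 8 libraries as log2(FPKM + 1) on the x axis. HIST1H2BK lies highest in all libraries, and its 20 mM controls (60.3 FPKM each) stand apart from the other 6 libraries.

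The first comparison asked what both MAPKAPK2 shRNAs changed against the control shRNA at 20 mM. Among the histone genes 3 fell and 0 rose: HIST1H2BK, HIST1H2BD and HIST1H4I. These are 16.7% of the 18, against 17.3% of all 16239 genes tested called in either direction, 9.56% higher and 7.77% lower, so the share of histone genes called was near that of all genes. The median log2 fold change of the 18 was -0.11, against -0.00 over all genes tested, with 11 below and 7 above 0. Calls needed a Benjamini-Hochberg adjusted p under 0.05 over all genes in limma on log2(FPKM + 1), and the same sign with both shRNAs. Without replicate 2 of the 20 mM control 1 of the 3 calls was made, that of HIST1H2BK.

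HIST1H2BK, which encodes the H2B type 1-K protein (ENSG00000197903, chr6:27146418-27146798, minus strand, 1 exon), was the most abundant histone gene. It had 30.5 and 21.6 FPKM with shRNA 1, 32.0 and 30.5 with shRNA 2, 42.5 and 42.2 at 0 mM, and 60.3 and 60.3 in the 20 mM control, from 126 to 409 reads. All 4 MAPKAPK2 shRNA libraries were below all 4 control libraries, and the 0 mM libraries were between. Its log2 fold change over both shRNAs was -1.06 (SE 0.13, limma adjusted p = 0.0031). With shRNA 1 it averaged 43.3% of the control (log2 fold change -1.20, SE 0.15, limma adjusted p = 0.0034), and with shRNA 2 51.8% (-0.93, SE 0.15, limma adjusted p = 0.0076). The combined and shRNA 1 calls were made under all 13 alternative settings. The shRNA 2 call was lost without either 20 mM control library, with limma adjusted p = 0.057 and 0.054.

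HIST1H2BK shares 28.4% of its 100-base windows exactly with H2BFS, whose 2 rows had 0 reads in every library. The other 3 tested H2B genes are 90.8% to 91.3% identical to it over the 381 coding bases. Its divergent partner HIST1H2AH, an H2A gene 330 bases away, had 1 to 4 reads per library and was not tested.

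HIST1H2BD, another H2B gene (ENSG00000158373, chr6:26158146-26171349, plus strand), differed between the shRNAs. It had 6.04 and 6.16 FPKM with shRNA 1, 12.8 and 9.98 with shRNA 2, 15.0 and 17.9 at 0 mM, and 13.0 and 16.8 in the 20 mM control. The shRNA 1 libraries were far below all others, and the upper shRNA 2 library was just under the lower control. Over both shRNAs it fell by 0.76 on the log2 scale (SE 0.14, limma adjusted p = 0.013), and with shRNA 1 by 1.15 (SE 0.16, limma adjusted p = 0.0050). With shRNA 2 its log2 fold change was -0.36 and did not pass (limma adjusted p = 0.18). Without replicate 2 of the 20 mM control the combined call was lost (limma adjusted p = 0.11).

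HIST1H4I, an H4 gene (ENSG00000276180, chr6:27138588-27139881, plus strand), had 3.65 and 3.13 FPKM with shRNA 1, 3.67 and 4.32 with shRNA 2, 4.44 and 4.91 at 0 mM, and 4.94 and 5.43 in the 20 mM control. Its 4 MAPKAPK2 shRNA libraries were below the 4 control libraries. The log2 fold change was -0.40 over both shRNAs (SE 0.10, limma adjusted p = 0.037) and -0.49 with shRNA 1 (SE 0.12, limma adjusted p = 0.029). It rests on 62 to 125 reads per library. The combined call was made under 4 of 13 alternatives and the shRNA 1 call under 7, and in limma voom on the recovered reads their adjusted p was 0.10 for each. The combined call was lost without any one library other than replicate 2 of shRNA 2 (limma adjusted p up to 0.22), and the shRNA 1 call without either shRNA 1 library or either 20 mM control (up to 0.16).

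**Figure D3:**
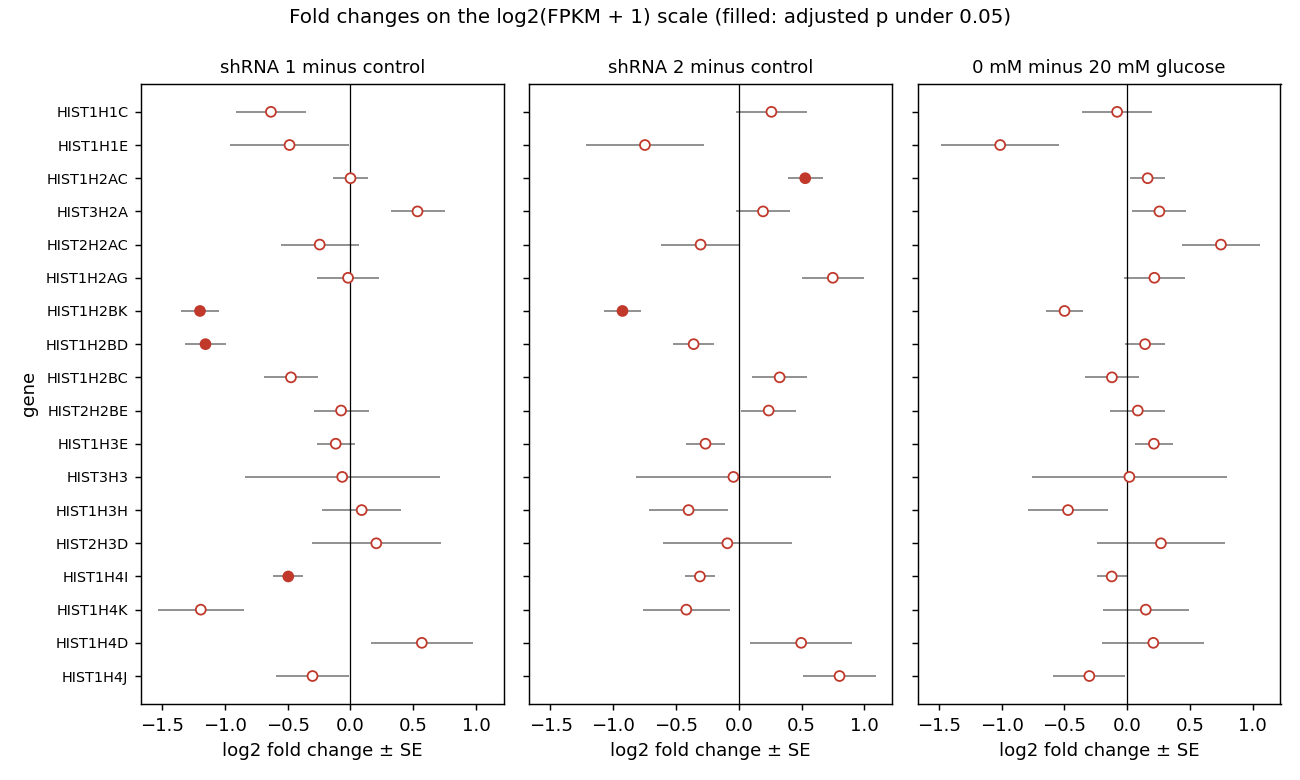
Log2 fold change on the log2(FPKM + 1) scale (x axis, whiskers 1 SE) of the 18 histone genes for shRNA 1 and shRNA 2 against the 20 mM control and for 0 mM against 20 mM glucose. Filled points passed at a limma adjusted p under 0.05. HIST1H2BK is filled in both shRNA panels, at -1.20 and -0.93, and no point is filled in the glucose panel.

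With shRNA 1 alone the same 3 genes fell and 0 rose, 16.7% of the 18 against 19.8% of all genes tested (9.35% higher and 10.5% lower). The median was -0.18 for the histone genes, or -0.12 without HIST1H4J, which had at most 3 reads in every library of both groups, and -0.01 for all genes, and 13 of the 18 were below 0. HIST1H4K, an H4 gene, had 0 and 0.838 FPKM with shRNA 1 against 1.72 and 2.52 FPKM in the control, and its log2 fold change of -1.19 did not pass (limma adjusted p = 0.053). HIST3H2A, an H2A gene on chromosome 1, had 7.00 and 7.31 FPKM with shRNA 1 against 4.21 and 5.08 FPKM in the control. Its log2 fold change of 0.53 did not pass either (limma adjusted p = 0.13).

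With shRNA 2 alone HIST1H2AC rose and HIST1H2BK fell, 11.1% of the 18 against 18.8% of all genes tested (11.1% higher and 7.73% lower). The median was -0.07 for the histone genes and 0.01 for all genes. HIST1H2AC, which encodes an H2A type 1 protein (ENSG00000180573, chr6:26124145-26139116, plus strand), had 6.18 and 5.61 FPKM with shRNA 1, 9.31 and 8.57 with shRNA 2, 6.49 and 6.92 at 0 mM, and 5.02 and 6.87 in the 20 mM control. The shRNA 2 libraries were above the 6 others, which overlapped. The log2 fold change with shRNA 2 was 0.53 (SE 0.14, limma adjusted p = 0.041), a call made under 3 of 13 alternatives. It was lost without any one library other than replicate 2 of the 20 mM control (limma adjusted p up to 0.19). With shRNA 1 the change was 0.00. Leaving out any 1 library left 0 or 1 call with shRNA 2. The count was 0 without replicate 1 of the 20 mM control and 1 without any of the other 7.

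The direct test of shRNA 2 against shRNA 1 found 4 histone genes higher and 0 lower with shRNA 2, 22.2% of the 18 against 22.2% of all genes tested (13% higher and 9.13% lower). They were HIST1H2AC, HIST1H2BC, HIST1H2BD and HIST1H4J. The median was 0.23 for the histone genes, also with HIST1H4J set at 3 reads per shRNA 1 library, and 0.03 for all genes. HIST1H2BD was 0.79 higher on the log2 scale (SE 0.16, limma adjusted p = 0.015) and HIST1H2AC 0.53 higher (SE 0.14, limma adjusted p = 0.038). The count was 0 without replicate 2 of shRNA 1 or without replicate 1 of shRNA 2, 1 without replicate 1 of shRNA 1, and 2 without any one of the 4 control libraries. The HIST1H2BD call was lost without either shRNA 1 library or replicate 1 of shRNA 2 (limma adjusted p up to 0.086). The HIST1H2AC call was lost without any one MAPKAPK2 shRNA or 0 mM library (limma adjusted p up to 0.17).

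HIST1H2BC is the H2B gene that lies head to head with HIST1H2AC (ENSG00000180596, chr6:26114873-26123926, minus strand). It had 1.15 and 0.941 FPKM with shRNA 1, 3.29 and 1.94 with shRNA 2, 1.74 and 1.48 at 0 mM, and 2.15 and 1.55 in the 20 mM control, from 12 to 52 reads. Its shRNA 1 libraries were the lowest of the 8. It was 0.80 higher on the log2 scale with shRNA 2 than with shRNA 1 (SE 0.22, limma adjusted p = 0.040), a call made under 4 of 13 alternatives and lost without any one library other than replicate 2 of shRNA 2 (adjusted p up to 0.17). In limma voom on the recovered reads the adjusted p was 0.080. Both genes of this divergent pair were thus called higher with shRNA 2. In the other pair with both genes tested, HIST2H2BE and HIST2H2AC, the log2 differences were 0.31 and -0.06 and neither passed.

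HIST1H4J (ENSG00000197238, chr6:27824108-27824480, plus strand) had 0 reads in both shRNA 1 libraries, 8 and 7 reads with shRNA 2, 0 in both 0 mM libraries, and 2 and 1 in the 20 mM control. With shRNA 1 set at a limit of 3 reads per library, the mean with shRNA 2 was 2.41-fold higher (1.15 against 0.477 FPKM). The counting error of the 8 and 7 reads with shRNA 2 is not in this ratio, so it is no lower bound. The difference between the shRNAs passed the test (limma adjusted p = 0.036). The call was lost without any one MAPKAPK2 shRNA or 20 mM control library, and with a pseudocount of 0.1 (limma adjusted p up to 0.13). Its coding bases are identical to those of HIST1H4K, which shares 77.7% of its windows, so reads of these H4 genes may have been split between them and each value is uncertain. Reads of both together were 0 and 4 with shRNA 1, 18 and 12 with shRNA 2, 12 and 15 at 0 mM, and 11 and 15 in the 20 mM control.

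HIST1H1C, the linker histone H1.2 gene and the highest of its class (ENSG00000187837, chr6:26055787-26056428, minus strand), had 9.27 and 7.64 FPKM with shRNA 1, 22.7 and 11.9 with shRNA 2, 14.8 and 11.1 at 0 mM, and 12.7 and 14.6 in the 20 mM control. The shRNA 1 libraries were the lowest and replicate 1 of shRNA 2 stood far above the rest. That library also had the highest RN7SL2 value. The difference of shRNA 2 from shRNA 1 was 0.89 and did not pass (limma adjusted p = 0.064), but it passed in limma voom on the recovered reads (adjusted p = 0.030). Without that library it was 0.45 (limma adjusted p = 0.17), and without replicate 2 of shRNA 2 it was 1.33 and passed (limma adjusted p = 0.0093). Against the 20 mM control the log2 fold change of shRNA 2 was 0.26 with all libraries and -0.18 without replicate 1 of shRNA 2, and neither passed. HIST1H3E, an H3.1 gene and the highest H3 gene, had 2.04 and 1.86 FPKM with shRNA 1, 1.87 and 1.46 with shRNA 2, 2.35 and 3.10 at 0 mM, and 2.28 and 2.12 in the 20 mM control. It passed in none of the 5 comparisons in limma, and its libraries were between 1.46 and 3.10 FPKM.

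The genes known to make a polyadenylated message as well were 10 of the 71, and 6 of them were tested: HIST1H1C, HIST1H2AC, HIST1H2BC, HIST1H2BD, HIST1H2BK and HIST2H2BE. With both shRNAs 2 of the 6 fell and 0 rose, beside 7.77% of all genes tested lower and 9.56% higher, and the median was -0.13. Between the shRNAs 3 of the 6 were called higher with shRNA 2, beside 13% of all genes, and all 6 were above 0, with a median of 0.66 against 0.03 over all genes tested.

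Removal of glucose was the other comparison, 0 mM against 20 mM in cells with the control shRNA. In limma 0 of the 18 histone genes and 0% of all genes tested were called. At an unadjusted p under 0.05 there were 2 of the 18 histone genes and 1421 of the 16239 genes, and limma voom on the recovered reads called 0 histone genes and 0.172% of all genes. The lowest adjusted p of a histone gene in limma was 0.46, that of HIST1H2BK. Its values of 42.5 and 42.2 FPKM at 0 mM did not overlap 60.3 and 60.3 FPKM at 20 mM, and the log2 fold change was -0.50 (SE 0.15). The median of the 18 was 0.11, or 0.14 without HIST1H4J, against -0.01 over all genes, with 11 above and 7 below 0. HIST1H2BD, at 15.0 and 17.9 FPKM against 13.0 and 16.8 FPKM, overlapped between 0 and 20 mM.

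Genes that act with the histone genes were counted as context, to be read beside the 9.56% of all genes tested that rose and the 7.77% that fell over both shRNAs, with a median of -0.00. Of 11 tested genes listed as replication-independent histone genes, 1 rose and 3 fell over both shRNAs, with a median of -0.31. H1F0, the linker histone of resting and differentiating cells, had 121 and 117 FPKM with shRNA 1, 297 and 213 with shRNA 2, 84.1 and 79.9 at 0 mM, and 81.5 and 79.3 in the 20 mM control. All its MAPKAPK2 shRNA libraries were above all controls, and its log2 fold change was 1.10 (limma adjusted p = 0.0031). Averaged over both shRNAs, CENPA, the centromeric H3, fell by 0.67 (limma adjusted p = 0.0069). H2AFX, the H2A of the DNA damage response, fell by 0.68 (limma adjusted p = 0.018) and H3F3B, an H3.3 gene, by 0.37 (limma adjusted p = 0.033). CENPA had 4.87 and 4.95 FPKM with shRNA 1, 14.2 and 11.2 with shRNA 2, and 13.0 and 13.6 in the 20 mM control. H3F3B had 110 and 98.4, 160 and 144, and 158 and 167 FPKM in the same order. For both, shRNA 1 lay below the 20 mM control, while shRNA 2 overlapped or straddled it. H2AFZ (-0.31) and H3F3A (-0.12) did not pass (limma adjusted p = 0.13 and 0.37). In shRNA 2 against shRNA 1, 4 of the 11 were higher and 1 lower, with a median of 0.38, beside 13% higher and 9.13% lower of all genes.

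Of 21 tested genes for histone gene transcription and 3′ processing 1 rose and 5 fell over both shRNAs, with a median of -0.04. SLBP, which binds the stem-loop, had 56.6 and 53.6 FPKM with shRNA 1, 52.3 and 52.5 with shRNA 2, 58.2 and 57.8 at 0 mM, and 71.8 and 78.8 in the 20 mM control. Both 20 mM controls were above the other 6 libraries, as they were for HIST1H2BK. SLBP fell by 0.48 over both shRNAs (SE 0.07, limma adjusted p = 0.0074). NPAT, the coactivator of histone genes that cyclin E/CDK2 phosphorylates, did not pass (-0.31, limma adjusted p = 0.23). On average CCNE2 fell by 0.87 and CDK2 by 0.68, while CCNE1 rose by 0.57 (limma adjusted p = 0.0035, 0.0057 and 0.0057). Taken singly, shRNA 1 (-0.60) and shRNA 2 (-1.15) each lowered CCNE2 and passed. CDK2 passed only for shRNA 1 (-1.26) and not for shRNA 2 (-0.10, limma adjusted p = 0.61). CCNE1 passed only for shRNA 2 (1.01) and not for shRNA 1 (0.14, limma adjusted p = 0.36). Of their exon bases, 37.1% in CCNE2 and 16.8% in CDK2 lie opposite exons of other genes.

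Histone chaperones, which carry histones to and from DNA, had 7 of 21 lower and 0 higher, with a median of -0.26. The replication-coupled chaperone genes ASF1B, CHAF1A and CHAF1B fell by 0.94, 0.81 and 0.80 and MCM2 by 0.59 (limma adjusted p = 0.0016, 0.0020, 0.0055 and 0.0038). Of 24 genes for DNA synthesis in S phase, MCM2 among them too, 20 fell and 0 rose, with a median of -0.52. UHRF1 (-1.29), CDC6 (-1.34), TYMS (-1.21) and E2F2 (-1.16) had the smallest p, all with a limma adjusted p under 0.05, and 46.6% of the TYMS and 23.6% of the MCM2 exon bases lie opposite exons of other genes. Summed over the 24 genes they gave 682 and 643 FPKM with shRNA 1, 691 and 685 with shRNA 2, 821 and 821 at 0 mM, and 999.8 and 1035 in the 20 mM control. This order of the groups is that of the H2B sums. The H1, H2A, H3 and H4 sums do not show it, nor does H2B without HIST1H2BK. The part of S-phase content in the histone levels was not tested.

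**Figure D4:**
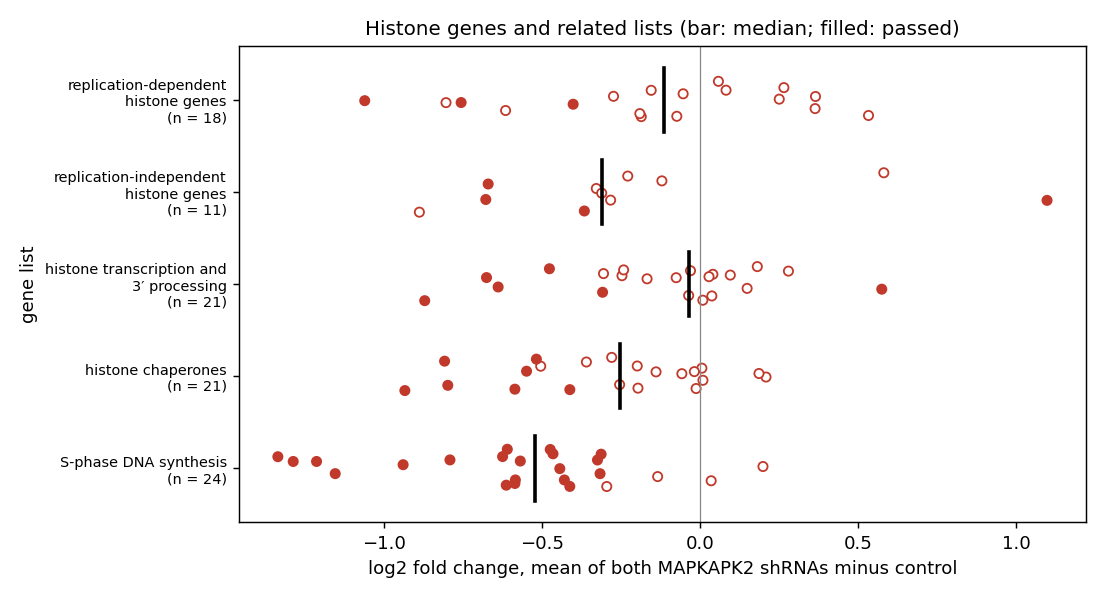
Log2 fold change over both MAPKAPK2 shRNAs against the 20 mM control (x axis, log2(FPKM + 1) scale) of the tested genes of 5 lists. Each point is 1 gene, filled where it passed, and the bar is the median. The S-phase list lies lowest (median -0.52, 20 of 24 lower) and the replication-dependent histone genes spread on both sides of 0 (median -0.11, 3 of 18 lower).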

How the data were processed

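RNA of 8 HCT116 libraries was primed with random hexamers, per the labels' protocols. The submitters' processing notes list DESeq2 1.20.0, HISAT2 2.0.5 and featureCounts 1.5.0-p3 and give no roles. How strand, poly(A) tails and multiply mapped reads were handled is stated nowhere in the labels. Per-gene FPKM is what the authors deposited. All 58735 identifiers matched GENCODE 29 on GRCh38. FPKM times gene length gave whole reads for 100% of values (tolerance 0.001 of a read), 14252316 to 19975449 per library, 0.932 to 1.05 times the library size the authors divided by.

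The 16239 genes that reached 1 FPKM in 2 or more libraries were tested with limma 3.58.1 in R 4.3.3 (eBayes with trend) on log2(FPKM + 1), with 4 group means over all 8 libraries. Fold changes on this scale understate those of low genes. A Benjamini-Hochberg adjusted p under 0.05 was a call. Alternatives were a pseudocount of 0.1, no filter, quantile normalization, limma voom on the recovered reads, a replicate block and leaving out each library. The scripts were tested on simulated data. Intervals and limits cover counting error only. Promoter motifs were searched by exact letters on both strands, and stem-loops by the consensus of the histone 3′ stem-loop in annotated transcripts.

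The members and gene lists were chosen with earlier results of these data known. Values in full are given for each histone gene called in any comparison and the highest of each class. In each other list up to 4 genes with the smallest p were named, plus SLBP, NPAT, H2AFX, H2AFZ, H3F3A, H3F3B and MAPKAPK2. HIST1H4K, HIST3H2A, HIST2H2BE, HIST2H2AC, HIST2H2BC, RN7SL2 and COL1A1 were chosen after their values were seen. ZCCHC6 and ZCCHC11 of the 23 names for transcription and 3′ processing were not analysed here. Another 19 rows with such names are not protein-coding and were left out.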

Additional observations from a re-analysis of the deposited data

Results flagged for a closer look

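The effects of the shRNAs against MAPKAPK2 differed from each other, by the test of shRNA 2 minus shRNA 1 in limma, for 4 histone genes. The log2 differences were 0.53 for HIST1H2AC, 0.80 for HIST1H2BC, 0.79 for HIST1H2BD and 1.10 for HIST1H4J. The value for HIST1H4J depends on the pseudocount, since shRNA 1 had 0 reads, and is no bound. All 4 were higher in both shRNA 2 libraries than in both shRNA 1 libraries. MAPKAPK2 itself was lower with shRNA 2 (0.982 and 0.800 FPKM) than with shRNA 1 (2.77 and 2.54 FPKM).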

How the results depend on the processing

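There were 520 values under the alternatives (8 named histone genes, 5 comparisons, 13 alternatives). Of these 457 kept their side of the threshold, 56 lost a call and 7 gained one. Among values with a call 0 changed sign. The 457 include uncalled values that did change sign, such as HIST1H1C with shRNA 2 against the control (0.26 to -0.18). Leaving out 1 library gave 1 to 3 histone genes called over both shRNAs (3 with all libraries), 2 to 4 with shRNA 1 (3), 0 to 1 with shRNA 2 (2), 0 to 3 for shRNA 2 against shRNA 1 (4) and 0 for glucose (0). With shRNA 2, quantile normalization gave 1 call and the replicate block 1. Same-numbered libraries deviated together only weakly (r of -0.03 to 0.18 over 6 pairs of groups). Neither this nor the labels can tell whether same-numbered libraries were prepared together, so the block result is given beside the main one. The causes of these losses were not tested. Outside the 8 genes, limma voom on the recovered reads also called HIST1H2AG, an H2A gene, higher with shRNA 2 than in the control (adjusted p = 0.020) and than with shRNA 1 (adjusted p = 0.019).

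The log2 ratio of the sum over all 71 genes was -0.20 at 0 mM, -0.53 over both shRNAs, -0.76 with shRNA 1 and -0.33 with shRNA 2, each against the 20 mM control. Without HIST1H2BK it was 0.041, -0.17, -0.45 and 0.071 in the same order, and with reads scaled to library size in place of FPKM -0.062, -0.30, -0.52 and -0.11. Leaving out 1 library gave -0.24 to -0.16 at 0 mM, -0.61 to -0.46 over both shRNAs, -0.95 to -0.60 with shRNA 1, -0.47 to -0.20 with shRNA 2 and 0.27 to 0.62 for shRNA 2 against shRNA 1. Low counts limit most members, and what part depth, overlapping genes or shared sequence has in them was not tested.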

Other observations

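Over the 8 libraries the protein-coding genes whose log2(FPKM + 1) was most like that of the summed histone genes were EIF3D, ELOVL3, CFAP20, ZDHHC12 and C1QBP, with Pearson's r of 0.983, 0.982, 0.981, 0.979 and 0.977. These were picked as the highest of all genes tested, the libraries of a group are not independent of its treatment, and the values are a description. Among the 19 rows with histone names that are not protein-coding, 9 were at 0 in all libraries. The pseudogene HIST2H2BC had 1.45 and 1.82 FPKM with shRNA 1, 1.28 and 1.37 with shRNA 2, 0.901 and 1.02 at 0 mM, and 0.975 and 0.768 in the 20 mM control, so both shRNA groups lay above both control groups.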
